A study of Mus musculus with 12 samples.

Results

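The glycolysis genes described here are 10 genes of glucose uptake and of the glycolytic chain, Slc2a1, Hk1, Hk2, Pfkl, Pfkp, Aldoa, Gapdh, Pgk1, Pkm and Ldha. They were taken by symbol from the 54532 Ensembl genes of a deposited count table, after the identifiers had been matched to GENCODE M21. The study sequenced 12 libraries, 3 for each of 4 groups, made from mRNA of mouse bone marrow HSPCs, the haematopoietic stem and progenitor cells that give rise to blood. In the uridine group, HSPCs of aged mice were cultured with uridine, a pyrimidine nucleoside. In the vehicle group, HSPCs of aged mice were cultured with the vehicle alone. HSPCs of aged mice that had not been cultured made up the aged group, and uncultured HSPCs of young mice the young group. Every sample is labelled wild type (WT). The vehicle libraries carry the strain name c57bl/6, whereas the other libraries run from c57bl/7 to c57bl/15 with a different number each, so the strain is uncertain. The sources used here do not give the ages of the mice, the markers used for sorting, the dose of uridine or the time in culture.

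Glycolysis splits glucose into pyruvate in the cytosol and yields ATP and NADH without oxygen. Its flux is controlled mainly at glucose entry and at the irreversible kinase steps, hexokinase, phosphofructokinase and pyruvate kinase, and lactate dehydrogenase returns NADH to NAD by reducing pyruvate to lactate. Long-term haematopoietic stem cells in the hypoxic bone marrow are known to lean on glycolysis while quiescent, and several of these genes are known targets of the hypoxia-inducible factors and of Myc.

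The deposited counts totalled 16785065 to 19025802 per library, and 16675 genes, all 10 glycolysis genes among them, passed the filter on low counts. Levels are given as CPM, the count of a gene relative to a library size scaled with TMM factors. A gene was called higher or lower where edgeR's quasi-likelihood test gave an adjusted p below 0.05, with adjustment over all genes tested. Separate animals or cultures behind the replicates are not stated in the labels, and p-values here therefore reflect only variation among libraries, which may be technical. Immunoglobulin genes with Jchain held 21.6 to 21.9% of all counts in the aged libraries and 0.539 to 0.924% elsewhere, so scaling matters for every comparison with that group. All 12 genes of an HSPC marker list, among them Kit, Cd34 and Ly6a, had counts in each group. Of these 5 were higher and 4 lower in aged against young cells, 5 higher and 2 lower in vehicle against aged cells, and 2 higher and 6 lower in uridine against vehicle cultures. Ly6a, which encodes the stem cell antigen Sca-1, averaged 247 ± 4.80 CPM in aged libraries and 17.8 ± 0.986 CPM in young libraries (SD, n = 3). Their summed level was 1322 to 1376 CPM in uridine libraries, 1589 to 1596 CPM in vehicle libraries, 1043 to 1074 CPM in aged libraries and 1064 to 1081 CPM in young libraries. Markers of other bone marrow cells were also present, and most of their values stand beside the comparisons. Stroma markers summed to 248 to 255 CPM in uridine libraries, 100.4 to 103 CPM in vehicle libraries, where Col3a1 was at 0, 118 to 129 CPM in aged libraries and 634 to 662 CPM in young libraries. T cell markers summed to 23.2 to 24.2, 11.2 to 14.3, 83.0 to 90.4 and 40.3 to 43.6 CPM in the uridine, vehicle, aged and young libraries.

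Uncultured aged and young HSPCs differed in opposite directions along the pathway. Slc2a1, Aldoa and Pkm were higher in aged cells, with Slc2a1, a glucose transporter, changing most at 1.72-fold. Hk1, Hk2, Pfkp, Pgk1 and Ldha were lower, with the largest falls for the hexokinase Hk1 and the phosphofructokinase Pfkp. Of the 10 genes 3 were called higher, where 33.2% of all genes tested were, and 5 lower, where 32.1% of all genes were, so the counts were near the background. With library totals in place of TMM factors, 1 was called higher and 8 lower, and Aldoa and Pkm were called lower. That scaling called 3012 of all 16675 genes tested higher and 8614 lower. The median log2 fold change was -0.06 over the glycolysis genes and 0.02 over all genes tested. Plasma cell markers (8 of 8 higher) summed to 25634 to 25891 CPM in aged libraries and 634 to 643 CPM in young libraries. B cell markers (6 of 8 higher, 2 lower) summed to 2051 to 2130.2 CPM in aged libraries and 618 to 626 CPM in young libraries. Erythroid markers (9 of 10 lower) summed to 172 to 183 CPM in aged libraries and 457 to 463 CPM in young libraries. Macrophage markers (3 of 9 higher, 3 lower) summed to 147 to 158 CPM in aged libraries and 244 to 256 CPM in young libraries. Of the stroma markers 2 of 7 were higher and 4 lower, and of the T cell markers 6 of 7 were higher. Markers of maturing neutrophils (9 of 9 lower) summed to 550.4 to 590.1 CPM in aged libraries and 5387 to 5604 CPM in young libraries. Proliferation genes (8 of 8 lower) summed to 1875 to 1910.2 CPM in aged libraries and 4232 to 4255 CPM in young libraries. The part of these cell types and of proliferation in the glycolysis values was not tested, and in bulk RNA fewer cells of a type and less RNA per cell cannot be told apart.

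Aged HSPCs cultured with vehicle had higher levels of most of the 10 glycolysis genes than uncultured aged HSPCs. Hk1, Hk2, Pfkp, Aldoa, Pgk1, Pkm and Ldha were higher, by between 1.27-fold for Pkm and 1.74-fold for Hk1, whereas Slc2a1 was lower. Of the 10 genes 7 were called higher, where 35.4% of all genes tested were, and 1 lower, where 35.1% of all genes were. The median log2 fold change was 0.37 over the glycolysis genes and -0.01 over all genes tested. Macrophage markers (6 of 9 higher, 3 lower) summed to 1249 to 1290.5 CPM in vehicle libraries and 147 to 158 CPM in aged libraries. Plasma cell markers (8 of 8 lower) summed to 1044 to 1092 CPM in vehicle libraries and 25634 to 25891 CPM in aged libraries. Markers of maturing neutrophils (1 of 9 higher, 7 lower) summed to 319 to 328 CPM in vehicle libraries and 550.4 to 590.1 CPM in aged libraries. Stroma markers and T cell markers were lower in 7 of 7 genes each. B cell markers (8 of 8 lower) summed to 44.9 to 47.2 CPM in vehicle libraries and 2051 to 2130.2 CPM in aged libraries. Erythroid markers (10 of 10 lower) summed to 6.81 to 9.94 CPM in vehicle libraries, with Slc4a1 at 0, and to 172 to 183 CPM in aged libraries. Proliferation genes (8 of 8 higher) summed to 2798 to 2843 CPM in vehicle libraries and 1875 to 1910.2 CPM in aged libraries, and the part of all these lists in the result was not tested.

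Uridine cultures had somewhat less mRNA than vehicle cultures of 6 of the 7 enzymes that were higher in vehicle than in aged cells. Hk1, Hk2, Aldoa, Pgk1, Pkm and Ldha were lower, by 0.12 to 0.37 on the log2 scale, with Aldoa changing most. None of the 10 genes was called higher by edgeR or limma voom, where edgeR called 20.0% of all genes tested. DESeq2 called none higher either, but it gave no adjusted p for Gapdh and so could not call that gene. By edgeR 1, Pfkp, was higher at an unadjusted p under 0.05. By edgeR 6 were called lower, where 18.1% of all genes were. The median log2 fold change was -0.15 over the glycolysis genes and -0.00106 over all genes tested. The same vehicle libraries enter this comparison and the culture comparison, so the opposite signs in the 2 comparisons do not come from separate measurements. Markers of maturing neutrophils (8 of 9 higher, 1 lower) summed to 2029 to 2104 CPM in uridine libraries and 319 to 328 CPM in vehicle libraries. Erythroid markers (10 of 10 higher) summed to 155 to 158 CPM in uridine libraries and 6.81 to 9.94 CPM in vehicle libraries. B cell markers (8 of 8 higher) summed to 223 to 239.6 CPM in uridine libraries and 44.9 to 47.2 CPM in vehicle libraries. Plasma cell markers (2 of 8 higher, 4 lower) summed to 704 to 729.6 CPM in uridine libraries and 1044 to 1092 CPM in vehicle libraries. Of the stroma markers 5 of 7 were higher, and of the T cell markers 6 of 7. Macrophage markers (1 of 9 higher, 6 lower) summed to 774 to 798 CPM in uridine libraries and 1249 to 1290.5 CPM in vehicle libraries. Proliferation genes (6 of 8 higher) summed to 3356 to 3377 CPM in uridine libraries and 2798 to 2843 CPM in vehicle libraries. The part of these lists in the glycolysis differences was not tested, and values with a young-like share subtracted are given after the single genes.

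**Figure D1:**
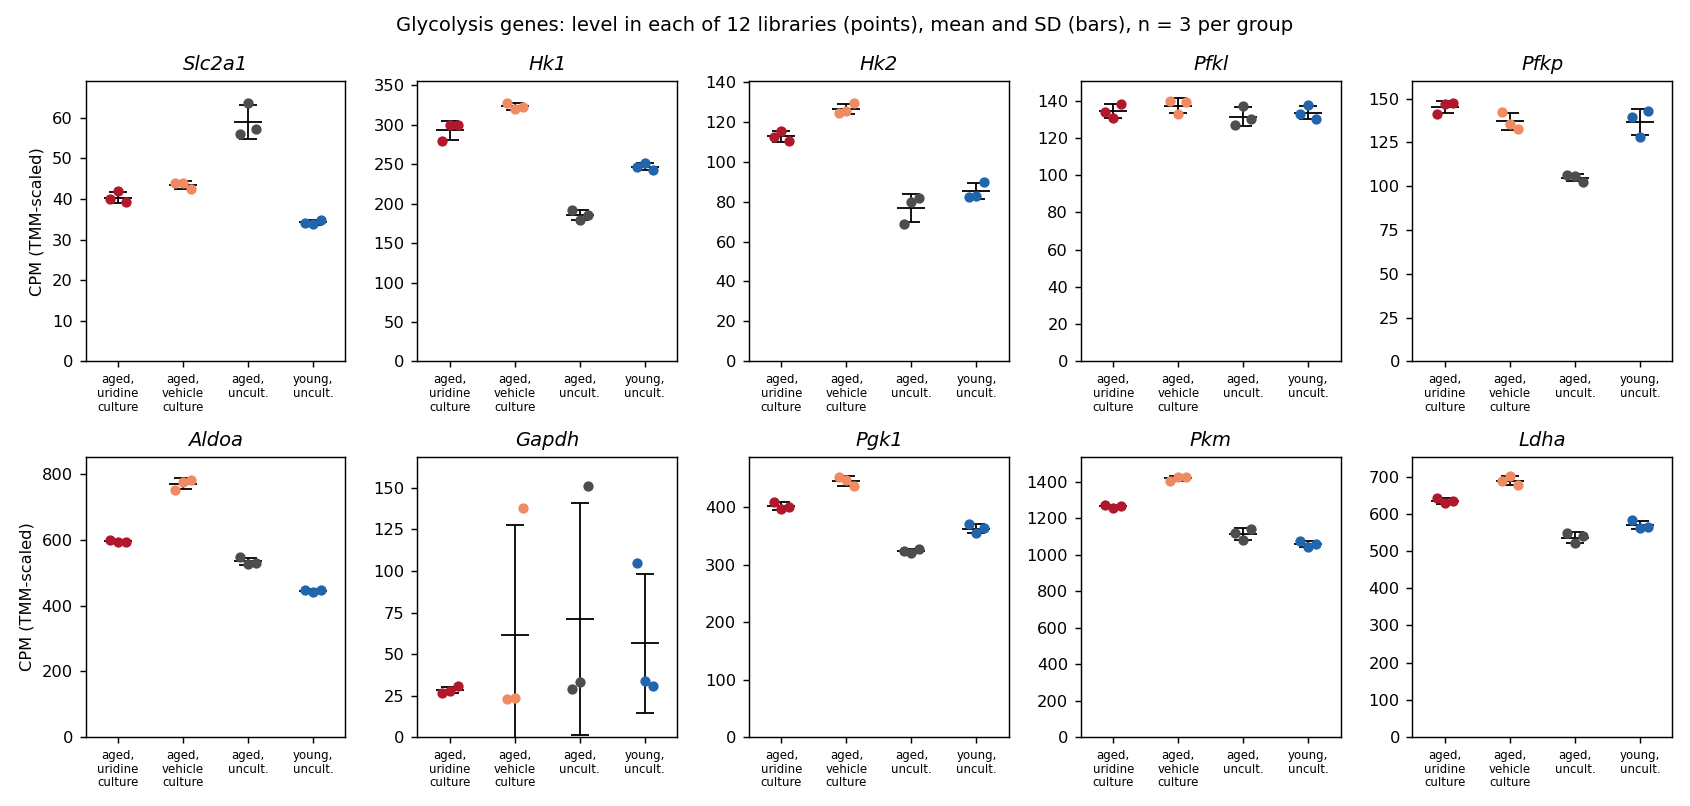
Level of each glycolysis gene in TMM-scaled CPM (vertical axis, linear, starting at 0) in the 12 libraries (points), with the mean and SD of 3 libraries per group as bars; groups run from uridine culture to vehicle culture, uncultured aged and uncultured young cells. For Hk1, Hk2, Pgk1 and Ldha the order is vehicle, uridine, young, aged from high to low; Gapdh has 1 library far above the others in the vehicle, aged and young groups, and the lower SD bar of its vehicle group is cut at 0.

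The promoters of 5 genes show what the members share and do not share in sequence next to the start site. Hk1, Hk2, Pgk1 and Ldha are shown because they stood in 1 order across the groups (vehicle, uridine, young, aged, from high to low) with every neighbouring pair called, and Slc2a1 because its order differed. Each line is the 250 bases before a RefSeq start site (GRCm38.p6), 5′ to 3′ on the gene's strand, with matches to ACGTG or GCGTG on either strand in capitals. ACGTG is the core of the hypoxia response element and lies inside CACGTG, the E-box that Myc and related factors bind.
Slc2a1 promoter, chr4:119108495-119108744, plus strand: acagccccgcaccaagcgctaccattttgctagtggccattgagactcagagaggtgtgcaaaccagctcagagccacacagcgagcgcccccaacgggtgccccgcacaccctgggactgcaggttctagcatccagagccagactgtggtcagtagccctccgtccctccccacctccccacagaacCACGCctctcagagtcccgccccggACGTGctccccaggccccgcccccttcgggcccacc
Hk1 promoter, chr10:62340422-62340671, minus strand: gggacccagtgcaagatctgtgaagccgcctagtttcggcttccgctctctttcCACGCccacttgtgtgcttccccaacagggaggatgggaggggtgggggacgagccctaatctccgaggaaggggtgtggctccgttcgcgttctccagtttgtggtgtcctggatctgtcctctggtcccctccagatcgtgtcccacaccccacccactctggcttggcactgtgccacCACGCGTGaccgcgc
Hk1 promoter, chr10:62379909-62380158, minus strand: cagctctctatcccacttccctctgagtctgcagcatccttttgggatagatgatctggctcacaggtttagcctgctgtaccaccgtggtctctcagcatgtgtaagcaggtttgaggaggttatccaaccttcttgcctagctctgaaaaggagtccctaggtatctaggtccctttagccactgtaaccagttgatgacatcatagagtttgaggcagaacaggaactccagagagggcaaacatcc
Hk2 promoter, chr6:82774455-82774704, minus strand: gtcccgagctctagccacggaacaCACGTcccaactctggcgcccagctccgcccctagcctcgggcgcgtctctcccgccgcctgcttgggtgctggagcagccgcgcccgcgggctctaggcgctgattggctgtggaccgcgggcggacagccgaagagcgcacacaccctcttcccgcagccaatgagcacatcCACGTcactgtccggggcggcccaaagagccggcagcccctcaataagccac
Pgk1 promoter, chrX:106186850-106187099, plus strand: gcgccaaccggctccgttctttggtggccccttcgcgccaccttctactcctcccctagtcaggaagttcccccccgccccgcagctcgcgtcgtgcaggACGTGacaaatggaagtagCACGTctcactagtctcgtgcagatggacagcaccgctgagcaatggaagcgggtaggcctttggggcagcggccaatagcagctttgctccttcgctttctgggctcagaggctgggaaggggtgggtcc
Ldha promoter, chr7:46845554-46845803, plus strand: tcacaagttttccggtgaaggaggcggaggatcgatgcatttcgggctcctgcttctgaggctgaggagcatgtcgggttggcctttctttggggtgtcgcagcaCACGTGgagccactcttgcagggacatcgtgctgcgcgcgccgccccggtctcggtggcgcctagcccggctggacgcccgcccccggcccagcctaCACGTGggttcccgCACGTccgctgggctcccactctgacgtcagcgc
Neither Hk1 window held ACGTG, and the downstream Hk1 window held GCGTG 3 times. A second Ldha window, not shown, held no ACGTG and 1 GCGTG. Pfkl, whose means stood in the order of Hk1 without any call, had no ACGTG and 1 GCGTG. The Ldha window shown held 2 copies of CACGTG, which account for 4 of its 5 ACGTG matches, and none of the other windows of the 10 genes held that motif. Of the 15 windows of the 10 genes 7 held ACGTG, belonging to 6 genes, and 16.6% of all 32851 RefSeq windows did. The Aldoa windows chr7:126799179-126799428 and chr7:126799255-126799504 overlap and hold the same ACGTG match, which is thus counted in both. Both also count among the windows with GGGCGG given below. GCGTG was found in 6 of the 15 windows and in 28.2% of all windows, and CACGTG in 1 of the 15 and in 6.02% of all windows. The GC box letters GGGCGG were found in 8 of the 15 windows and in 32.7% of all windows, and TATAAA in 0 of the 15 and in 12.4% of all windows. A match describes letters only and is not a binding site.

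Slc2a1 (GLUT1, chromosome 4, 119108711 to 119137983, GRCm38) imports glucose. Its level was 40.0, 41.9 and 39.2 CPM in uridine libraries, 44.1, 43.8 and 42.4 CPM in vehicle libraries, 56.0, 63.7 and 57.3 CPM in aged libraries and 34.1, 33.8 and 34.9 CPM in young libraries. All 3 aged libraries lay above every other library and all 3 young libraries below, without overlap. The log2 fold change was 0.78 ± 0.0634 (SE) in aged against young cells (edgeR adjusted p = 2.61e-13) and -0.44 ± 0.0621 in vehicle against aged cells (edgeR adjusted p = 9.35e-08). The difference of -0.11 ± 0.0624 between uridine and vehicle cultures did not pass the threshold (edgeR adjusted p = 0.191). With library totals in place of TMM factors, the vehicle against aged value was -0.11 and no longer called (edgeR adjusted p = 0.123).

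The hexokinases phosphorylate glucose and so keep it in the cell. Hk1 (chromosome 10, 62268855 to 62379908) is the widely expressed form. It stood at 279, 300.2 and 299.6 CPM in uridine libraries, 328, 319.6 and 323 CPM in vehicle libraries, 192, 179.9 and 186 CPM in aged libraries and 247, 251 and 243 CPM in young libraries. The 4 groups did not overlap, and each neighbouring pair in the order vehicle, uridine, young, aged was called. Its log2 fold change was -0.41 ± 0.0327 in aged against young cells, 0.80 ± 0.0324 in vehicle against aged cells and -0.14 ± 0.0310 in uridine against vehicle cultures (edgeR adjusted p = 1.82e-13, 3.06e-22 and 0.000315).

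Hk2 (chromosome 6, 82725025 to 82774454) is the form known to be induced by growth signals and hypoxia. It stood at 112, 116 and 110.3 CPM in uridine libraries, 124, 126 and 129 CPM in vehicle libraries, 68.9, 79.9 and 81.6 CPM in aged libraries and 82.5, 83.0 and 89.7 CPM in young libraries. Aged and young libraries came close to each other, with the highest aged library just under the lowest young one, whereas the cultures stood clear of both. The log2 fold change was 0.72 ± 0.0485 in vehicle against aged cells and -0.17 ± 0.0454 in uridine against vehicle cultures (edgeR adjusted p = 1.14e-15 and 0.00371). In aged against young cells it was -0.15 ± 0.0498 (edgeR adjusted p = 0.00964). That call was lost without aged replicate 1, at -0.07 (edgeR adjusted p = 0.173), and without young replicate 3, at -0.11 (edgeR adjusted p = 0.0709). Per kilobase of transcript, Hk2 made up 23.0% ± 0.772 of Hk1 and Hk2 together in uridine libraries, 23.3% ± 0.517 in vehicle libraries, 24.3% ± 2.16 in aged libraries and 21.1% ± 1.03 in young libraries (SD, n = 3). Hk1 was thus the larger part of this pair in every group, and no test was run on this share. The vehicle libraries, at 22.7 to 23.7%, did not overlap the young libraries, at 20.4 to 22.3%, whereas the other pairs of groups overlapped. Hk3, a hexokinase outside the 10 genes, is not in this share. It averaged 320 ± 5.54 CPM in uridine libraries and 306 ± 4.04 CPM in vehicle libraries. Its mean was 269 ± 4.67 CPM in aged libraries and 356 ± 9.81 CPM in young libraries (SD, n = 3). Hk3 was lower in aged against young cells and higher in vehicle against aged cells. In uridine against vehicle cultures it was not called, at 0.06 (edgeR adjusted p = 0.0658).

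Phosphofructokinase, the committed step, is built from liver (Pfkl), platelet (Pfkp) and muscle (Pfkm) subunits. Pfkl (chromosome 10, 77986947 to 78010083) ran from 127 to 140.0 CPM over all 12 libraries. Group means lay between 137 ± 4.03 CPM in vehicle libraries and 132 ± 5.17 CPM in aged libraries (SD, n = 3), and none of the 6 comparisons between groups was called. Of the 6 Pfkl differences 4 changed sign with DESeq2 size factors or upper-quartile factors, all except aged against young and uridine against vehicle. With library totals 3 differences that involve aged cells were called, at -0.36 for aged against young, 0.40 for vehicle against aged and 0.39 for uridine against aged. Without aged replicate 2, Pfkl was called in vehicle against aged cells at 0.0961 (edgeR adjusted p = 0.0373).

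Pfkp (chromosome 13, 6579768 to 6648777) stood at 141, 146.7 and 148 CPM in uridine libraries, 143, 136 and 133 CPM in vehicle libraries, 106, 106 and 103 CPM in aged libraries and 139, 128 and 143 CPM in young libraries. The 3 aged libraries were below all others, and the other 3 groups overlapped. The log2 fold change was -0.38 ± 0.0412 in aged against young cells and 0.39 ± 0.0413 in vehicle against aged cells (edgeR adjusted p = 3.67e-10 and 2.36e-10). Uridine and vehicle cultures differed by 0.08 ± 0.0392, which was not called (edgeR adjusted p = 0.0968). That Pfkp difference was called with library totals, at 0.10 (edgeR adjusted p = 0.0326), and with the 6 compared libraries alone, at 0.0910 (edgeR adjusted p = 0.0252). Pfkp shares 748 exon bases with Pitrm1, a mitochondrial peptidase gene on the opposite strand, and 15.0% of its 150-base windows occur in another gene's transcripts, so part of the reads could belong to either gene. Pitrm1 stood at 107, 97.7 and 103 CPM in uridine libraries and 101, 102 and 103 CPM in vehicle libraries. It stood at 77.8, 88.6 and 75.6 CPM in aged libraries and 124, 115 and 120.5 CPM in young libraries. The part of Pitrm1 in the Pfkp values was not tested. Per kilobase, Pfkl made up 50.7% ± 0.823 of Pfkl and Pfkp together in uridine libraries, 52.7% ± 0.957 in vehicle libraries, 58.2% ± 1.05 in aged libraries and 52.1% ± 2.05 in young libraries (SD, n = 3). The aged libraries lay at 57.0 to 59.0% and did not overlap the other groups in this share, for which no test was run.

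Aldoa (chromosome 7, 126795234 to 126800751), the aldolase that splits fructose bisphosphate, stood at 598, 592 and 595 CPM in uridine libraries, 751, 777 and 783 CPM in vehicle libraries, 547, 527 and 531 CPM in aged libraries and 447, 442 and 448 CPM in young libraries. The 4 groups were apart, in the order vehicle, uridine, aged, young. It had the largest called change of the 10 genes between the cultures, with a log2 fold change of -0.37 ± 0.0232 in uridine against vehicle cultures (edgeR adjusted p = 9.70e-16). The value was 0.53 ± 0.0235 in vehicle against aged cells and 0.26 ± 0.0238 in aged against young cells (edgeR adjusted p = 6.05e-21 and 4.18e-12). The age difference of Aldoa took the other sign with library totals, at -0.08 (edgeR adjusted p = 0.00399), under which the median of all genes was -0.32. That scaling gave 3012 genes higher and 8614 lower in aged against young cells, against 5535 higher and 5354 lower with TMM factors.

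Gapdh, glyceraldehyde phosphate dehydrogenase and a common reference gene, could not be compared between groups from these counts. Its counts were 544, 546 and 616 in uridine libraries, 436, 431 and 2445 in vehicle libraries, 432, 476 and 2198 in aged libraries and 2094, 617 and 562 in young libraries. In 3 libraries, vehicle replicate 3, aged replicate 3 and young replicate 1, Gapdh was thus several times higher than in the other libraries of the group, and the groups overlapped. Among 10869 genes with a mean of at least 100 counts, the median ratio of the highest to the lowest library of a group was 1.08 to 1.12. For Gapdh this ratio was 1.14 in the uridine group, 6.02 in the vehicle group, 5.26 in the aged group and 3.41 in the young group, and 20, 16 and 14 of those genes reached the Gapdh ratio in the vehicle, aged and young groups.

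Gapdh (chromosome 6, 125161715 to 125166467) has 285 annotated pseudogene copies that match its transcripts over at least 200 bases at 85% identity or more, of which 129 had counts and 23 were at least 99% identical. Of the 150-base windows of its longest coding transcript, 74.0% occur letter for letter in a pseudogene. Counted separately, 37.5% of the windows occur in transcripts of other genes not annotated as pseudogenes. Those genes are not among the 285 copies, so the summed copies given below do not cover them. One coding stretch of 90 bases (coding bases 301 to 390) is shown for the 4 copies with the most counts, with mismatches to Gapdh in capitals, 5′ to 3′ in the sense of Gapdh.
Gapdh: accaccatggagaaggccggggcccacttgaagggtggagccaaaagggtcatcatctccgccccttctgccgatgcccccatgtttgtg
Gm7336: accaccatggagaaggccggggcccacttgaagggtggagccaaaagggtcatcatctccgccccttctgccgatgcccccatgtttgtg
Gm5559: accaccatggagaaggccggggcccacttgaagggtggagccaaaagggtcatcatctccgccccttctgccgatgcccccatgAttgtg
Gm12070: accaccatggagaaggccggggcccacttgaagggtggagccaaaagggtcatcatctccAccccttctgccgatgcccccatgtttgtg
3000002C10Rik: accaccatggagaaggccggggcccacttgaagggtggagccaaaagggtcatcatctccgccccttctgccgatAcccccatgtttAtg
The stretch was chosen for having few mismatches that still tell copies apart, so it does not stand for the whole gene. Gm7336 on chromosome 7 had no mismatch in it, Gm5559 on chromosome 5 and Gm12070 on chromosome 11 had 1 each, and 3000002C10Rik on chromosome 9 had 2. Gm7336 was the most abundant copy, with a mean of 775 counts in uridine libraries, 595 in vehicle libraries, 438 in aged libraries and 608 in young libraries. Summed over the 285 copies, the counts were 1638, 1888 and 1769 in uridine libraries, 1523, 1286 and 1334 in vehicle libraries, 1245, 996 and 1190 in aged libraries and 1435, 1430 and 1173 in young libraries. The copies together exceeded Gapdh in 9 libraries, and they did not rise in the 3 libraries where Gapdh was high. The sources used here do not say how the counting program treated reads that match several places, so the split between Gapdh and its copies is uncertain.

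With all libraries, Gapdh differed by -1.10 ± 0.479 on the log2 scale in uridine against vehicle cultures (edgeR adjusted p = 0.0669), by 0.32 ± 0.450 in aged against young cells (edgeR adjusted p = 0.546) and by -0.22 ± 0.450 in vehicle against aged cells (edgeR adjusted p = 0.682). Without the 3 high libraries, an alternative added after seeing the data, the values were 0.29 ± 0.0913 in uridine against vehicle cultures, -0.06 ± 0.0986 in aged against young cells and -0.41 ± 0.102 in vehicle against aged cells (edgeR adjusted p = 0.0150, 0.624 and 0.000823). The direction in uridine against vehicle cultures was therefore set by vehicle replicate 3. With the copies added to Gapdh, none of these 3 comparisons was called. With no low-count filter all 3 were called, at -1.11, 0.30 and -0.19 in the same order (edgeR adjusted p = 3.98e-69, 1.24e-06 and 0.00375). The SE was then 0.0582 to 0.0621, against 0.450 to 0.479 with the filter, although the Gapdh counts were the same. These adjusted p-values therefore do not reflect the spread of Gapdh among the libraries of a group. The uridine against vehicle difference was also called with the 6 compared libraries alone, at -1.10 (edgeR adjusted p = 0.00851), without vehicle replicate 1, at -1.50 (edgeR adjusted p = 0.0141), and without vehicle replicate 2, at -1.49 (edgeR adjusted p = 0.0104). Without vehicle replicate 3, Gapdh was called in vehicle against aged cells at -1.60 (edgeR adjusted p = 0.00122), and without young replicate 1 in aged against young cells at 1.13 (edgeR adjusted p = 0.0479).

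**Figure D2:**
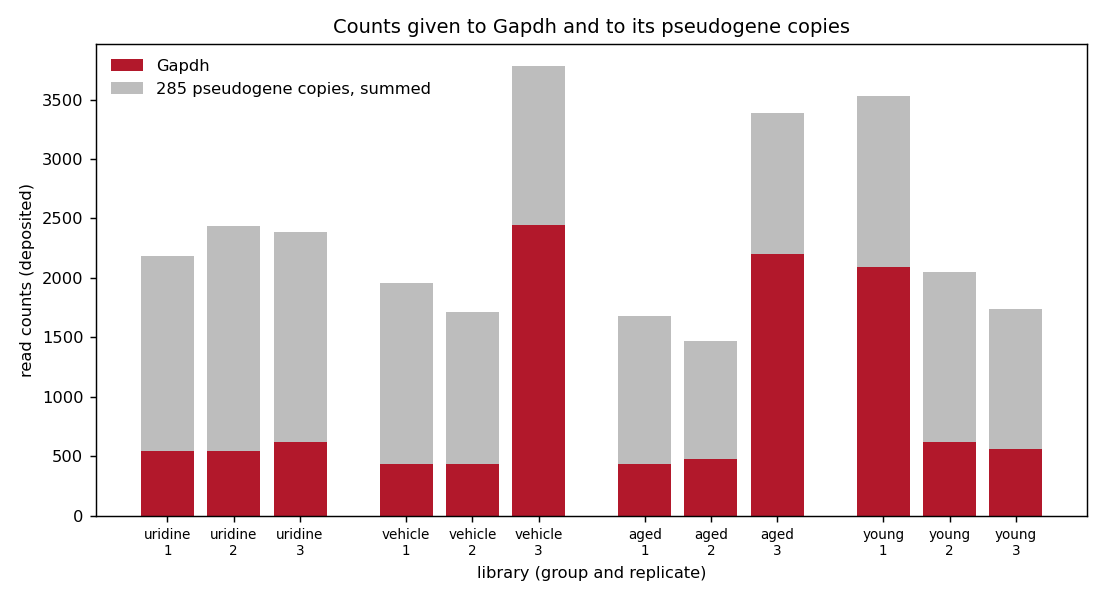
Deposited read counts (vertical axis, linear) given to Gapdh (red) and to its 285 pseudogene copies together (grey, stacked on top) in each of the 12 libraries, grouped as uridine, vehicle, aged and young. Vehicle 3, aged 3 and young 1 have 2094 to 2445 Gapdh counts and the other libraries 431 to 617, while the copies run from 996 to 1888 without a matching rise.

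Pgk1 (chromosome X, 106187100 to 106203699), phosphoglycerate kinase, makes the first ATP of the chain. It stood at 410, 397 and 401 CPM in uridine libraries, 452, 448 and 436 CPM in vehicle libraries, 324, 319.9 and 327 CPM in aged libraries and 370.5, 355 and 364 CPM in young libraries. The 4 groups did not overlap, in the order vehicle, uridine, young, aged. The log2 fold change was -0.17 ± 0.0267 in aged against young cells, 0.46 ± 0.0266 in vehicle against aged cells and -0.15 ± 0.0260 in uridine against vehicle cultures (edgeR adjusted p = 1.51e-06, 1.25e-17 and 1.85e-05). Of its 150-base windows 66.1% occur in a pseudogene. The most abundant copy, Pgk1-rs7, held at most 0.712% of the Pgk1 counts in any library. The treatment of reads that match several places is not stated, and reads left out of both genes would not show in that share.

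Pkm (chromosome 9, 59656368 to 59679375), pyruvate kinase of muscle and proliferating cells, had the most counts of the 10 genes, and counts per gene do not separate its splice forms. Its level was 1276, 1256 and 1268 CPM in uridine libraries, 1406, 1428 and 1426 CPM in vehicle libraries, 1118, 1080.4 and 1144 CPM in aged libraries and 1079, 1046 and 1058 CPM in young libraries. The cultures stood clear of the uncultured cells, whereas the lowest aged library was almost level with the highest young one. The log2 fold change was 0.35 ± 0.0204 in vehicle against aged cells and -0.17 ± 0.0203 in uridine against vehicle cultures (edgeR adjusted p = 1.81e-17 and 2.45e-08). In aged against young cells it was 0.07 ± 0.0205 with TMM factors (edgeR adjusted p = 0.00297) and -0.27 with library totals (edgeR adjusted p = 1.40e-14), so the direction of the age difference of Pkm rests on the scaling. The Pkm pseudogene with the most reads, Gm6560, held at most 1.09% of the Pkm counts. Pkm also shares 767 exon bases with Gm49759, a gene on the same strand. Over all libraries Gm49759 had 9318 counts and Pkm 262911, and the part of this overlap in the Pkm values was not tested.

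Ldha (chromosome 7, 46841475 to 46855627), the lactate dehydrogenase subunit that favours lactate formation, stood at 644, 628 and 634 CPM in uridine libraries, 689, 702 and 678 CPM in vehicle libraries, 548, 521 and 540.5 CPM in aged libraries and 583, 563 and 565 CPM in young libraries. The groups did not overlap, in the order vehicle, uridine, young, aged. The log2 fold change was -0.09 ± 0.0244 in aged against young cells, 0.36 ± 0.0243 in vehicle against aged cells and -0.12 ± 0.0240 in uridine against vehicle cultures (edgeR adjusted p = 0.00202, 1.06e-15 and 0.000136). The age difference was thus the smallest called fall among the 10 genes.

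Compared per kilobase of the longest coding transcript, Pkm, Aldoa, Ldha and Pgk1 were the 4 most abundant of the 10 genes in every group. Pkm was first in each group, at 521 ± 4.16 CPM per kilobase in uridine libraries, 584 ± 5.05 in vehicle libraries, 458 ± 13.1 in aged libraries and 436 ± 6.83 in young libraries (SD, n = 3). Aldoa, Ldha and Pgk1 took the next places, with Aldoa above Ldha in the uridine, vehicle and aged groups and Ldha above Aldoa in the young group. Aldoa averaged 288 ± 2.18 and Ldha 314 ± 5.99 CPM per kilobase in young libraries. Hk1 was highest in vehicle libraries with 75.6 ± 0.979 CPM per kilobase and lowest in aged libraries with 43.5 ± 1.42. Slc2a1 was highest in aged libraries with 18.1 ± 1.26 and lowest in young libraries with 10.5 ± 0.173 CPM per kilobase. Gapdh averaged 20.0 ± 1.39 CPM per kilobase in uridine libraries, with the uncertainty over its copies.

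The remaining 3 comparisons share these groups and give the same order from other sides. Uridine cultures had 7 of the 10 genes called higher than aged cells (35.8% of all genes) and 2 lower (32.1% of all genes), Slc2a1 and Gapdh. Gapdh libraries overlapped there, and its call at -1.32 (edgeR adjusted p = 0.0157) was lost without aged replicate 3, at -0.12 (edgeR adjusted p = 0.834), and without uridine replicate 1, at -1.27 (edgeR adjusted p = 0.0514). Uridine cultures had 7 genes called higher than young cells (26.2% of all genes) and 0 lower (23.3% of all genes) by edgeR, with 1 lower at an unadjusted p under 0.05 (Gapdh). That Gapdh difference, at -0.999, was called at -1.26 without young replicate 2 and at -1.29 without young replicate 3 (edgeR adjusted p = 0.0423 and 0.0325). Pfkp was called higher in uridine than in young cells without young replicate 3, at 0.12 (edgeR adjusted p = 0.0289). Vehicle cultures had 7 called higher than young cells (33.3% of all genes) and 0 lower (32.5% of all genes) by edgeR, with 0 lower at an unadjusted p under 0.05. Limma voom also called 0 lower in these comparisons with young cells. DESeq2 called 0 lower too, but it gave no adjusted p for Gapdh and so could not call that gene. Slc2a1, Hk1, Hk2, Aldoa, Pgk1, Pkm and Ldha were those 7 in both comparisons with young cells, with Aldoa at 0.42 in uridine and 0.79 in vehicle cultures on the log2 scale.

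The uridine libraries lay between the vehicle and young libraries in many genes, and the glycolysis genes were placed on that scale. On 145 genes whose level in young libraries was 10 or more times that in vehicle libraries, the uridine libraries stood at a median of 33.3% of the way from the vehicle level to the young level. On that scale, as a fraction, Hk2 stood at 0.331, Slc2a1 at 0.333, Hk1 at 0.399, Pkm at 0.428, Ldha at 0.454, Pgk1 at 0.523 and Aldoa at 0.539. The fractions of Hk2 and Slc2a1 were within the quartiles of the 145 genes (0.310 to 0.363), and those of the other 5 of these 7 genes were larger. No error was estimated for the fraction of a single gene, and Slc2a1 was not called between uridine and vehicle cultures. Whether any of these genes stood apart from the 145 genes was therefore not tested. Pfkl stood at 0.816, Gapdh at 6.39 and Pfkp at -26.4. For these 3 genes the vehicle and young levels were not called different, so the fraction divides by a small difference and nothing is read from it.

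When a young-like share of this size was subtracted from the uridine libraries, 3 of the 6 calls against vehicle cultures were kept, those of Aldoa, Pgk1 and Pkm. Over all genes tested the share called lower was then 10.0%, against 18.1% with the libraries as deposited, and the share called higher 6.53%, against 20.0%. Aldoa was then at -0.22 ± 0.0251, Pgk1 at -0.10 ± 0.0288 and Pkm at -0.07 ± 0.0224 on the log2 scale (edgeR adjusted p = 6.41e-07, 0.0230 and 0.0329). Hk1 at -0.05, Hk2 at -0.02 and Ldha at -0.06 were no longer called (edgeR adjusted p = 0.386, 0.885 and 0.114). Gapdh entered the calls at -2.10 (edgeR adjusted p = 0.0292), with its 1 high vehicle library and 1 high young library. What the young-like share consists of was not tested.

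**Figure D3:**
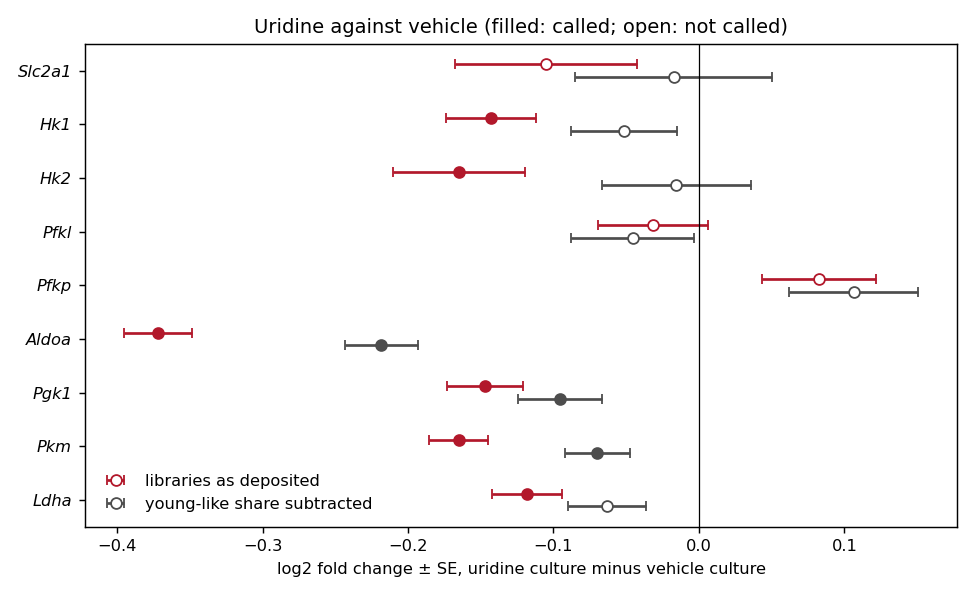
Log2 fold change of uridine against vehicle cultures (horizontal axis, with SE) for 9 glycolysis genes, Gapdh left out, with the libraries as deposited (red) and after a young-like share was subtracted from the uridine libraries (grey); filled points were called. Aldoa stays farthest from 0 with -0.37 and -0.22, and Hk1, Hk2 and Ldha lose their calls.

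The genes of the other glycolytic steps did not move as a block with the 10. Of 19 such genes 15 were tested. In aged against young cells 7 were higher and 5 lower (median 0.14), and in uridine against vehicle cultures 2 were higher and 2 lower (median 0.04). In vehicle against aged cells 6 were higher and 6 lower (median -0.37). The median of -0.37 was the value of Eno2, not called, at 1.96 CPM in vehicle libraries and 2.52 CPM in aged libraries. Among the genes of highest level there, Hk3 (0.19), Pfkm (0.20), Pgam1 (0.45) and Eno1 (0.08) were called higher, Gpi1 lower and Tpi1 not called. The other called genes averaged at most 16.9 CPM in vehicle libraries, with Aldoc and Gapdhs higher and Pgam2, Bpgm, Eno3, Pklr and Ldhb lower. Gpi1, the isomerase between the hexokinase and phosphofructokinase steps, averaged 523 ± 3.45 CPM in vehicle libraries and 758 ± 16.5 CPM in aged libraries, a log2 fold change of -0.53 (edgeR adjusted p = 1.97e-21), opposite in sign to Hk1 and Hk2. Pgam1, phosphoglycerate mutase, changed in the direction of Pgk1, at 0.45 in vehicle against aged cells and -0.30 in aged against young cells. Eno1, the main enolase, had the signs of Aldoa and Pkm in all 3 comparisons, at 0.14 in aged against young cells (smaller than the shift of -0.32 that library totals bring), 0.08 in vehicle against aged cells and -0.14 in uridine against vehicle cultures. Tpi1, triose phosphate isomerase, was called only in aged against young cells among these 3, at -0.11.

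Some isoenzymes best known from other tissues had larger changes than their counterparts among the 10 genes. Ldhb, the subunit that favours lactate use, averaged 8.63 ± 0.812 CPM in vehicle libraries and 24.4 ± 1.86 CPM in aged libraries, a log2 fold change of -1.50 (edgeR adjusted p = 1.50e-14), where Ldha was higher. In uridine against vehicle cultures Ldhb was higher by 0.68 (edgeR adjusted p = 7.77e-06), where Ldha was lower. Pklr, the pyruvate kinase of liver and red cells, had 743 counts over the uridine libraries and 2 over the vehicle libraries, a ratio of 340 relative to the TMM-scaled library sizes, with an exact 95% counting interval of 93.9 to 2815. It had 2 counts over the vehicle libraries and 637 over the aged libraries, and was lower in aged than in young cells, at -1.29. The median log2 fold changes of the erythroid, maturing neutrophil and stroma markers had the signs of Pklr in all of these comparisons. The part of these cell types in the Pklr values was not tested. Aldoc, the brain aldolase, averaged 15.9 ± 1.07 CPM in vehicle libraries and 5.77 ± 0.967 CPM in aged libraries, a log2 fold change of 1.46 (edgeR adjusted p = 2.34e-11).

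**Figure D4:**
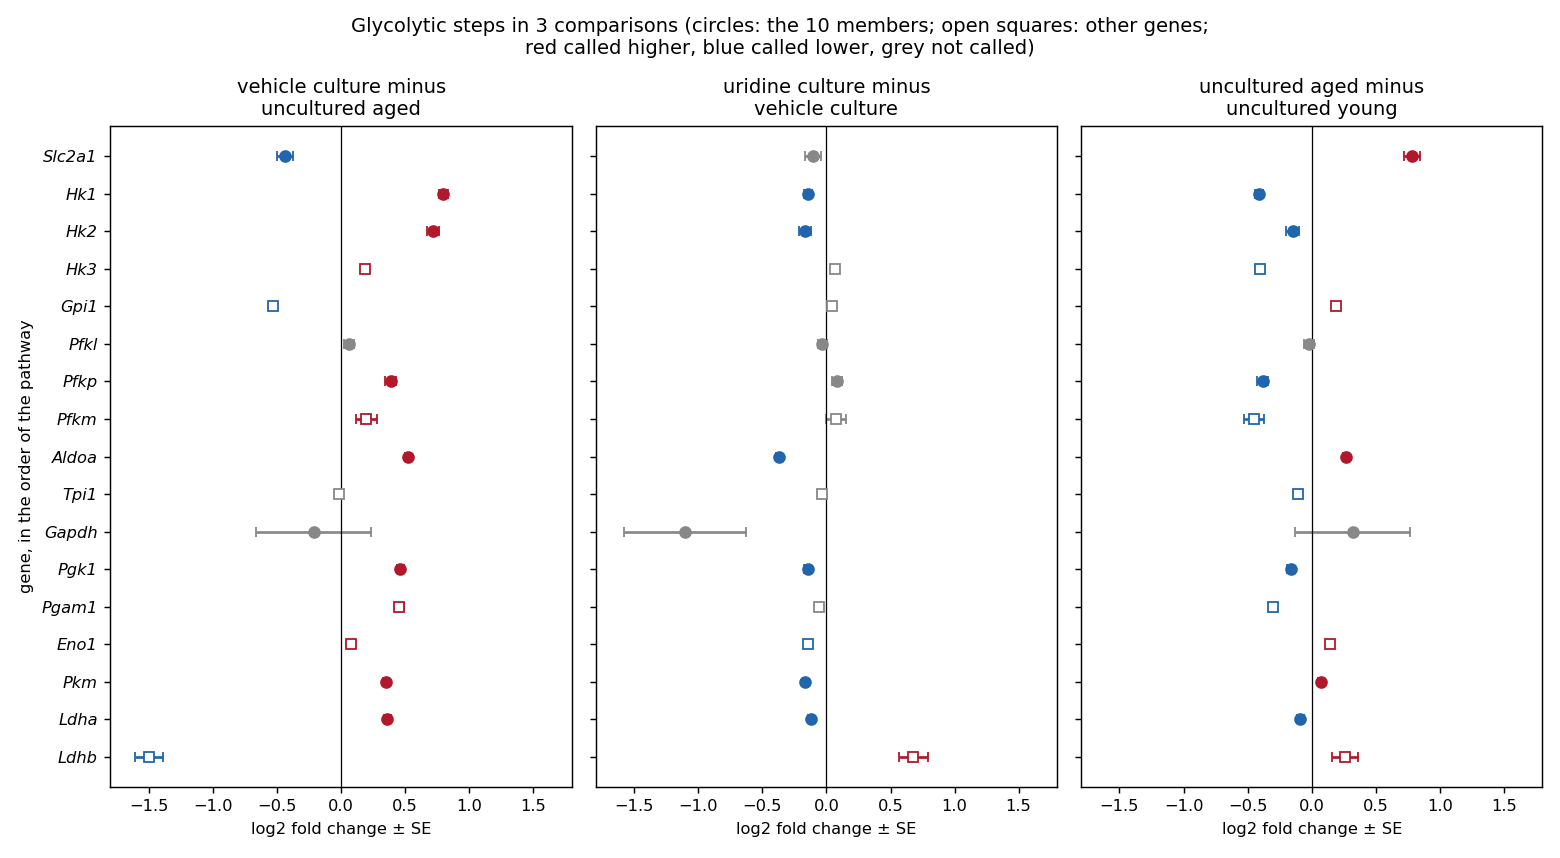
Log2 fold change with SE (horizontal axis) of the 10 glycolysis genes (circles) and 7 other genes of the same steps (open squares) in the order of the pathway from glucose entry to lactate, for vehicle culture against uncultured aged, uridine culture against vehicle culture and uncultured aged against uncultured young cells; red was called higher, blue lower, grey not called. In the vehicle against aged panel the 7 glycolysis genes called higher lie right of 0, from 0.35 to 0.80. Hk3, Pfkm, Pgam1 and Eno1 are also called higher there, from 0.08 to 0.45. Slc2a1 (-0.44), Gpi1 (-0.53) and Ldhb (-1.50) are called lower and lie to the left, and Pfkl, Gapdh and Tpi1 are not called.

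Glucose and lactate transporters added larger differences than Slc2a1. Of 9 tested, 1 was higher and 5 lower in aged against young cells, 4 higher and 2 lower in vehicle against aged cells, and 2 higher and 2 lower in uridine against vehicle cultures. Slc2a3 (GLUT3), a high-affinity glucose transporter, averaged 142 ± 3.44 CPM in vehicle libraries, 40.7 ± 2.43 CPM in aged libraries and 126 ± 4.12 CPM in young libraries. The age difference of Slc2a3 was -1.63 on the log2 scale (edgeR adjusted p = 7.29e-27), opposite in sign to that of Slc2a1. Slc2a6 averaged 77.2 ± 2.14 CPM in uridine libraries, 126 ± 4.69 CPM in vehicle libraries and 14.3 ± 2.89 CPM in aged libraries. Slc16a3 (MCT4), a lactate exporter, averaged 34.2 ± 0.218 CPM in vehicle libraries and 14.2 ± 1.11 CPM in aged libraries, and was 0.88 lower on the log2 scale in aged than in young cells.

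Regulators of the pathway and hypoxia genes changed in both directions. Of 15 regulators tested, 2 were higher and 4 lower in aged against young cells, 6 higher and 4 lower in vehicle against aged cells, and 4 higher and 5 lower in uridine against vehicle cultures. Hif1a, the oxygen-regulated subunit of the hypoxia-inducible factor, averaged 105 ± 2.50 CPM in vehicle libraries and 76.5 ± 1.08 CPM in aged libraries (log2 fold change 0.46). Myc averaged 228 ± 10.3 CPM in uridine libraries and 261 ± 2.46 CPM in vehicle libraries, a log2 fold change of -0.20 (edgeR adjusted p = 6.76e-06). Txnip, which restrains glucose uptake, was higher in uridine than in vehicle cultures by 0.36 (edgeR adjusted p = 4.49e-11). Of 16 hypoxia genes, 3 were higher and 5 lower in aged against young cells, 7 higher and 6 lower in vehicle against aged cells, and 6 higher and 3 lower in uridine against vehicle cultures. Vegfa, the vascular growth factor, averaged 21.8 ± 0.734 CPM in vehicle libraries and 76.1 ± 3.82 CPM in aged libraries, opposite in sign to P4ha1, a collagen hydroxylase, at 54.3 ± 1.17 CPM in vehicle libraries and 28.7 ± 2.35 CPM in aged libraries.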

How the data were processed

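The 12 samples were grouped by their titles. Raw read counts per Ensembl gene were deposited by the authors as 1 table with a column per library. Per the labels' protocols, mRNA was purified with poly-T beads and read as 150-base pairs on a NovaSeq instrument. The submitters' processing notes name HISAT2 2.0.5 and the mm10 build. The sources used here do not name the counting program, the annotation or the strand setting, so reads of overlapping, antisense or near-identical genes can be split wrongly.

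Symbols and positions came from GENCODE M21 (GRCm38); 54495 identifiers matched and 37 did not, with no more than 0.00589% of the counts of any library. Genes passing filterByExpr were scaled with TMM factors and fitted with 1 mean per group over all 12 libraries in edgeR 4.0.16 (R 4.3.3). The fit had 8 residual and 26.47 prior degrees of freedom and a common biological coefficient of variation of 0.0438. Each contrast was given a quasi-likelihood F-test, with Benjamini-Hochberg adjustment over all genes tested and a threshold of 0.05. The method was tested on simulated data. Copies were found by matching transcripts with blastn 2.17.0 (at least 85% identity over 200 bases). Promoter windows are from RefSeq (GRCm38.p6).

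The members, gene lists and alternatives were chosen with earlier results of these data known. All 10 members and the other genes of the glycolytic steps could be named. In each other list, up to 4 called genes with the smallest p per comparison could be named, or the 2 genes of highest level if none was called. Copies were named where they held at least 1% of the parent's counts in any library, or the 2 most abundant if none did. The young-like share was estimated on genes with at least 5 CPM in young libraries, with a floor of 0.05 CPM in the ratio, and subtracted from the uridine libraries. Alternatives were DESeq2 1.42.0, limma 3.58.1 (voom), DESeq2 size factors, upper-quartile factors, library totals, a filter of 1 CPM in 3 libraries, no low-count filter, the 6 compared libraries alone, the replicate number as a block, immunoglobulin genes left out, copies added to the parent gene, the young-like share subtracted, and each library left out in turn. Leaving out the 3 libraries of high Gapdh was added after seeing the data. A counting interval covers counting error only.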

Additional observations from a re-analysis of the deposited data

How the results depend on the processing

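Of 1326 values recomputed under the alternatives, 1226 kept their direction and side of the threshold, or stayed within 1.5 times for a count. For single genes other than Gapdh this held for 960 of 999 values. With library totals, 1 of the 10 genes was higher and 8 were lower in aged against young cells, 1 was higher in uridine against vehicle cultures, 0 were lower in vehicle against aged cells and 1 was lower in uridine against aged cells. That scaling moved the median of all genes by -0.32 in aged against young cells (3012 genes higher, 8614 lower), to 0.32 in vehicle against aged cells (8647 higher, 3720 lower) and to 0.39 in uridine against aged cells (9173 higher, 3057 lower). Limma voom and the copies added to the parent each gave 1 gene lower in uridine against aged cells, and DESeq2, which gave no adjusted p for Gapdh, 1 of the other 9. With no low-count filter, 2 were lower in vehicle against aged cells and 1 in uridine against young cells. With the 6 compared libraries alone, 1 was higher in uridine against vehicle cultures and 1 lower in uridine against young cells. Subtracting the young-like share gave 1 lower in uridine against young cells. Without the 3 libraries of high Gapdh, 1 was higher in uridine against vehicle cultures, 2 were lower in vehicle against aged cells, 1 in uridine against aged cells and 1 in vehicle against young cells. Same-numbered replicates correlated at -0.0307 to 0.0474 in their deviations and were not taken as pairs; with the replicate block, 1 gene was lower in uridine against young cells, and the counts of the other comparisons did not move.

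Leaving out 1 library at a time, the numbers of genes higher ran from 3 to 4 in aged against young cells, 0 to 0 in uridine against vehicle cultures, 7 to 8 in vehicle against aged cells, 7 to 7 in uridine against aged cells, 7 to 8 in uridine against young cells and 7 to 7 in vehicle against young cells. The numbers lower ran from 4 to 5, 6 to 7, 1 to 2, 1 to 2, 0 to 1 and 0 to 1 in the same order of comparisons. Directions turned for Gapdh, Pfkl, Pfkp, Aldoa and Pkm. Aldoa and Pkm turned in aged against young cells with library totals alone, at -0.0773 and -0.27. Pfkl in uridine against aged cells was at -0.00220 with DESeq2 size factors, -0.0245 with upper-quartile factors, -0.00216 with DESeq2 and -0.000927 with the 6 libraries. Pfkl in uridine against young cells was at -0.0335 with DESeq2 or its size factors, -0.0525 with upper-quartile factors and -0.00900 with the young-like share subtracted. With upper-quartile factors Pfkl was at -0.00198 in vehicle against aged and -0.0300 in vehicle against young cells. Pfkp in vehicle against young cells was at -0.0151 with DESeq2 or its size factors, -0.0656 with upper-quartile factors, -0.00327 with library totals, -0.00892 with the 1 CPM filter and -0.00600 with the 6 libraries. Gapdh was at -0.0216 (aged against young) and 0.12 (vehicle against aged) with library totals, at -0.24 with limma voom and -0.25 with the replicate block (both vehicle against young), and at -0.000158 with the block in aged against young cells. Without the 3 high libraries Gapdh turned to -0.0595 in aged against young cells, 0.29 in uridine against vehicle cultures and -0.47 in vehicle against young cells. Leaving out single libraries, Gapdh ran from -0.88 to 1.13 in aged against young cells, -1.50 to 0.28 in uridine against vehicle cultures, -1.60 to 0.98 in vehicle against aged cells and -1.28 to 0.92 in vehicle against young cells. Pfkl then ran from -0.0550 to 0.00198 in aged against young cells and from -0.0144 to 0.0285 in uridine against young cells, and Pfkp from -0.0382 to 0.0346 in vehicle against young cells. The cause of these turns was not tested. With 3 libraries per group and a low spread between them, differences as small as 0.07 on the log2 scale were called. The SE of the Gapdh differences, in contrast, was 0.448 to 0.481 in the edgeR fit with TMM factors, the low-count filter and all libraries.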

Other observations

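Genes that take sugar phosphates and pyruvate away from glycolysis also differed. Of 9 genes of pyruvate import and of the pyruvate dehydrogenase complex, 0 were higher by edgeR (0 at an unadjusted p under 0.05) and 7 lower in aged against young cells, 5 higher and 3 lower in vehicle against aged cells, and 2 higher and 2 lower in uridine against vehicle cultures. The 7 genes lower in aged cells were Pdha1, Pdhb, Dlat, Dld and Pdhx, which encode parts of the complex, and Pdp1 and Pdp2, phosphatases that activate it, whereas the carrier genes Mpc1 and Mpc2 were not called. Pdha1 averaged 110 ± 1.47 CPM in aged libraries and 154 ± 1.27 CPM in young libraries. Pdp2 averaged 41.2 ± 1.23 CPM in vehicle libraries and 11.5 ± 0.465 CPM in aged libraries. Of 8 genes of the pentose phosphate pathway, 3 were higher and 5 lower in aged against young cells, 5 higher and 2 lower in vehicle against aged cells, and 2 higher and 2 lower in uridine against vehicle cultures. G6pdx, its entry enzyme, averaged 205 ± 1.32 CPM in vehicle libraries, 98.6 ± 5.83 CPM in aged libraries and 172 ± 4.82 CPM in young libraries. Of 4 gluconeogenesis genes tested, 3 were higher and 1 lower in aged against young cells, 4 were lower in vehicle against aged cells, and 1 was higher in uridine against vehicle cultures. Fbp1, the bisphosphatase that opposes phosphofructokinase, averaged 1.92 ± 0.353 CPM in vehicle libraries, 12.6 ± 2.02 CPM in aged libraries and 3.25 ± 0.491 CPM in young libraries.

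The protein-coding genes outside the lists whose profile was most like the mean of the glycolysis genes were Stard3, Kpna2, Camk1, Tnfrsf1b and Igsf6, with Gapdh left out of the mean. Tnfrsf1b averaged 233 CPM in uridine libraries, 342 CPM in vehicle libraries, 73.9 CPM in aged libraries and 89.1 CPM in young libraries. Likeness was the correlation of log2 CPM over the 12 libraries, which fall into 4 groups, so it describes the order of the group levels.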
